A study of Mus musculus with 18 samples.

Results

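Sox2, Sox9, Sox10, Olig1, Olig2, Nkx2-2, Pou3f2, Myt1 and Zeb1 are transcription factor genes of neural and glial progenitors. They were taken by name as 9 of the 48795 genes in the table, of which 32595 had a read in at least 1 library. The cells are GL261 GFP, a mouse glioma line of C57BL/6 origin that carries green fluorescent protein. It was grown in serum-containing medium and then injected into Pfp/Rag2-/- mice or into C57BL/6 mice, the wild type (WT). The Pfp/Rag2-/- host lacks perforin and Rag2, and so lacks mature T and B cells and the perforin of its remaining killer cells. RNA was sequenced from 6 groups of 3 libraries. These were sorted GFP+ tumour cells from Pfp/Rag2-/- hosts, the same from WT hosts, unsorted tumour cells from Pfp/Rag2-/- hosts, the same from WT hosts, GFP- cells sorted out of tumours of WT hosts, and the GFP+ line in culture before injection. All tumours came from symptomatic mice, 6 per host, after collagenase digestion. The labels give no age, do not say whether a library was 1 mouse or a pool, and do not say whether the line was a clone, so every p-value reflects the spread among libraries, which may be technical.

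These factors act at successive steps of glial development. Sox2 keeps neural stem cells undifferentiated, and Sox9 turns them toward glia and stays on in astrocytes. Olig2 and Olig1, basic helix-loop-helix proteins, specify the oligodendrocyte lineage, in which Sox10 and the homeodomain protein Nkx2-2 drive differentiation. Pou3f2, a POU-domain protein also called Brn2, and Myt1, a zinc finger protein, act in neuronal and oligodendrocyte progenitors. Zeb1 is a zinc finger repressor of epithelial genes that is also present in neural progenitors and gliomas. In human glioblastoma, SOX2, OLIG2, POU3F2 and SALL2 are known as factors that together maintain stem-like cells.

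In the GENCODE vM21 annotation of the GRCm38 build, all 9 are protein-coding, and the place of Zeb1 is given with its targets further on. Olig2 (ENSMUSG00000039830, chr16:91225457-91228677, plus strand) and Olig1 (ENSMUSG00000046160, chr16:91269772-91271933, plus strand) are neighbours, with 41095 bases between the end of Olig2 and the start of Olig1. Myt1 (ENSMUSG00000010505, chr2:181763332-181827797, plus strand) and Nkx2-2 (ENSMUSG00000027434, chr2:147177546-147194243, minus strand) share chromosome 2. Sox2 (ENSMUSG00000074637) lies at chr3:34650405-34652461 on the plus strand, and Sox10 (ENSMUSG00000033006) at chr15:79154908-79165240 on the minus strand. Sox9 (ENSMUSG00000000567) lies at chr11:112782224-112787760 on the plus strand and Pou3f2 (ENSMUSG00000095139) at chr4:22482780-22488366 on the minus strand.

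RefSeq promoters of GRCm38 were at hand for 5 of the 9 genes, with 3 start sites for Myt1, of which the one at the GENCODE start is used. The 4 below are shown because they belong to genes that behaved differently: Myt1 and Olig2, higher in tumours than in culture, Nkx2-2, which differed between hosts in the opposite direction to Myt1, and Sox2, whose level hardly moved. Each is the 250 bases before the RefSeq start, 5′ to 3′ on the gene's own strand. Capitals mark E-boxes (CANNTG), the letters read by basic helix-loop-helix proteins such as OLIG2, and SOX cores (ACAAT or ACAAAG), on either strand.
Myt1 (chr2:181763082-181763331, plus): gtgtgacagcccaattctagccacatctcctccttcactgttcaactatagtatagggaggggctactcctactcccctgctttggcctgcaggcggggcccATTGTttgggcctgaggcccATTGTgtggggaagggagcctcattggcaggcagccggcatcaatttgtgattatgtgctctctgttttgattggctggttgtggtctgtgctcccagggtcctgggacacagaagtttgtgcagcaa
Olig2 (chr16:91225300-91225549, plus): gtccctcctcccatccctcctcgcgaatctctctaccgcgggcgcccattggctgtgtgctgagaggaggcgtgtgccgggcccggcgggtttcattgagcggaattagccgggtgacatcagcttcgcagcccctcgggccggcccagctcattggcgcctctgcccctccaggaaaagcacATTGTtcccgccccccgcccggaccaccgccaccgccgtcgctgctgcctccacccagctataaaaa
Nkx2-2 (chr2:147186403-147186652, minus): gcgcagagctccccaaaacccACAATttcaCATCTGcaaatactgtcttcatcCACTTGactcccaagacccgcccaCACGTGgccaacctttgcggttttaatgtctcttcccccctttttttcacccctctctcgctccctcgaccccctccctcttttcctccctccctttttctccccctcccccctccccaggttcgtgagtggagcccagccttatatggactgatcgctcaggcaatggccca
Sox2 (chr3:34649745-34649994, plus): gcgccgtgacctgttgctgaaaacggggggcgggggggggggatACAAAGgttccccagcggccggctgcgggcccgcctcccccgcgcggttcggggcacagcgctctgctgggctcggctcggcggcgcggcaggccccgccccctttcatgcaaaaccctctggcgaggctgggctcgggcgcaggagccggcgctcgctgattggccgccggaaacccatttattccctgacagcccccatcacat
The Myt1 window held 2 matches to ACAAT, no E-box, 2 CpG dinucleotides and 54.8% G and C. The Olig2 window held 1 ACAAT, 22 CpG and 66.8% G and C, and the Sox2 window 1 ACAAAG, 27 CpG and 72% G and C. The Nkx2-2 window held 3 E-boxes and 1 ACAAT. The RefSeq starts of Nkx2-2 and Olig2 lie inside the genes as GENCODE draws them, and that of Sox2 lies upstream of the GENCODE start. No motif overlapped another among those in capitals. Of all 32851 RefSeq windows of this length, 27.7% held ACAAT, 16.5% held ACAAAG and 66.2% held an E-box, so each match is common and describes letters only.

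All levels below are normalized counts, the deposited read counts divided by a size factor per library, and group values are means ± SD with n = 3. Differences are in log2 of the normalized count plus 1, a scale that understates changes of low genes. They were tested two-sided with limma and called where p, adjusted by Benjamini-Hochberg over all genes tested, was under 0.05. Libraries held 19172814 to 21141662 reads. Each library is a mixture, so fewer cells of a type and less RNA per cell cannot be told apart. The 8 myeloid markers, among them Csf1r and Aif1, checked the sort. They summed to 5439 to 8124 in sorted GFP+ cells of Pfp/Rag2-/- hosts, 4216 to 9779 in those of WT hosts, 166124 to 179249 in GFP- cells and 119 to 131 in culture. Tmem119, a microglial marker, made up most of the sum in each GFP+ tumour library but Pfp/Rag2-/- library 1 and did not follow the sort, at 4859 ± 2183 in WT GFP+ cells and 3800.4 ± 1543 in GFP- cells. The 7 markers without it, a choice made after the values were seen, summed to 4719, 697 and 705.5 in Pfp/Rag2-/- GFP+ libraries 1, 2 and 3, to 4050.1, 1152.5 and 2491 in WT GFP+ libraries 1, 2 and 3, to 160872 to 177069 in GFP- cells and to 18.9 to 22.6 in culture. Library 1 was the highest of its group in both hosts, and the comparison of sorted hosts is therefore also given without both.

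Per kilobase of exon, Olig1 was the highest of the 9 genes in all 5 groups taken from tumours and Sox9 the lowest in all 6 groups. In GFP+ cells the level of Olig1 was 13229 per kilobase in Pfp/Rag2-/- hosts and 9216 in WT hosts, followed by Sox10 at 5960 and 4731. In culture Sox10 (5497 per kilobase) stood just above Olig1 (5379). Olig2 stood at 4276, 2993 and 1752 per kilobase in Pfp/Rag2-/- GFP+, WT GFP+ and cultured cells, and Sox2 at 2928, 3007 and 3116. Myt1, Zeb1, Pou3f2 and Nkx2-2 lay far lower, between 4.08 per kilobase for Myt1 in culture and 382 for Myt1 in Pfp/Rag2-/- GFP+ cells. GL261 cells thus carried RNA of Sox2, Sox10, Olig1 and Olig2 at high levels both in culture and in tumours, while Sox9 was hardly detected.

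**Figure D1:**
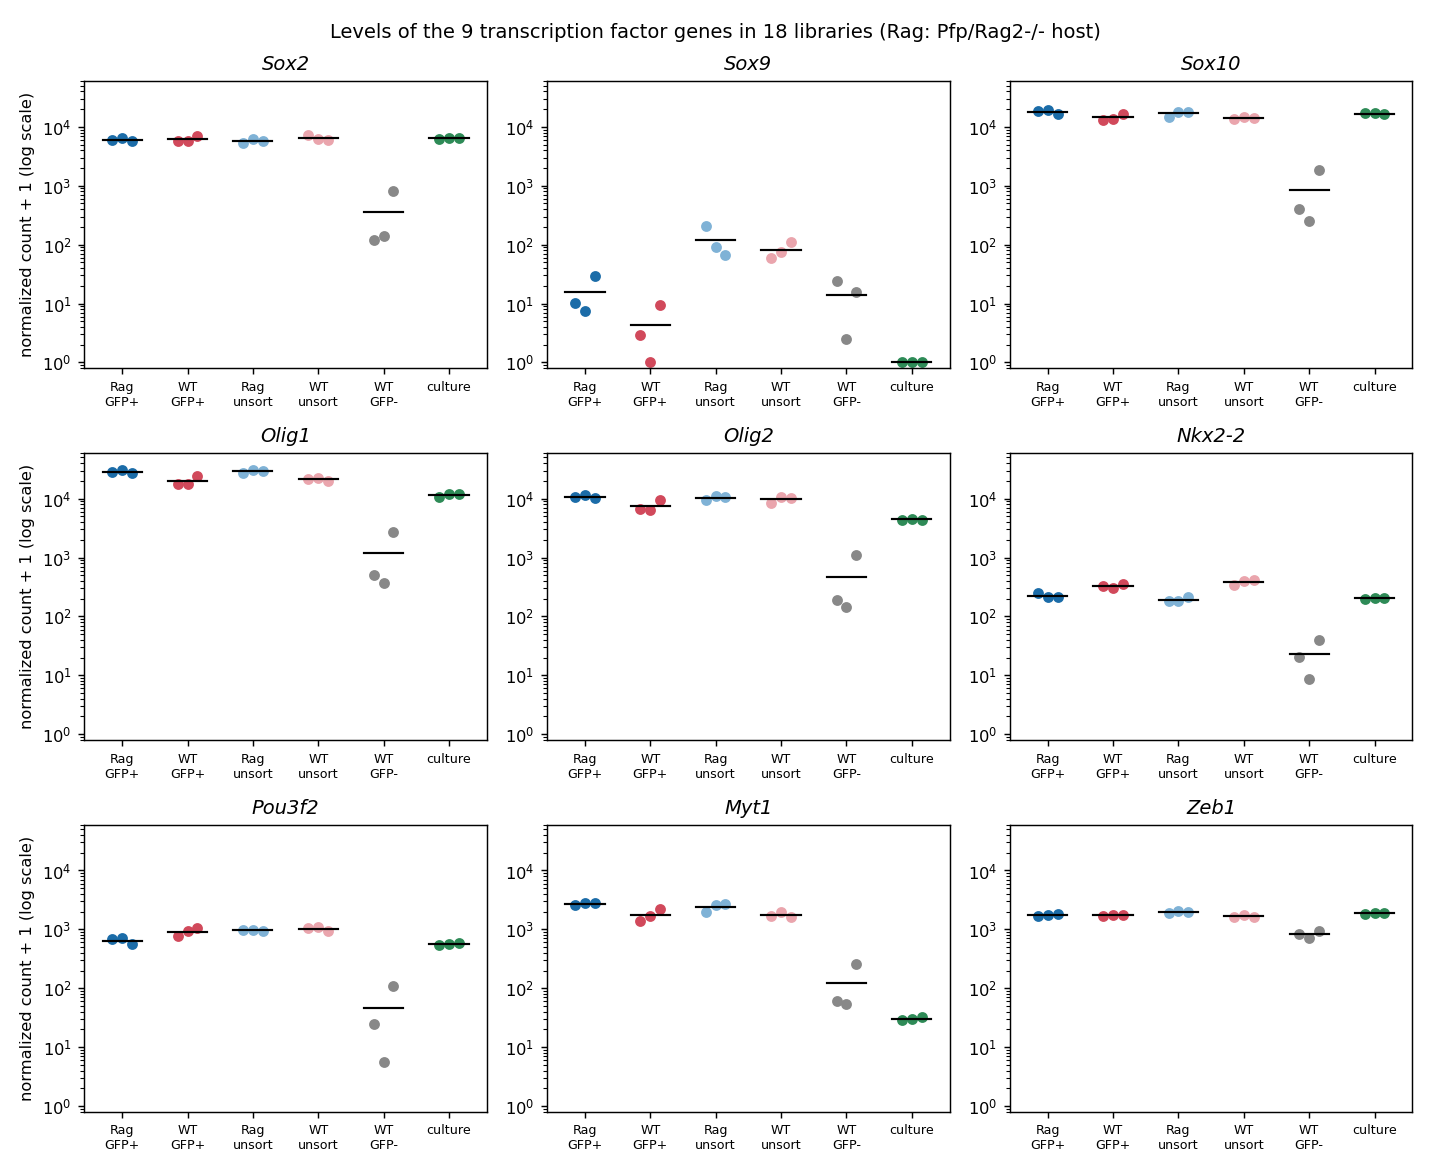
Normalized counts plus 1, on a log axis, of the 9 genes in each of 18 libraries (points), with the group mean as a line, for the 6 groups named below each panel. Myt1 is at 27.4 to 31.5 in culture and at 1394 or more in all GFP+ and unsorted tumour libraries, Sox9 is at 0 in culture, and the GFP- libraries lie below the sorted GFP+ tumour libraries for all genes shown but Sox9.

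Tumour growth was compared with culture in each host to ask how these factors differ between cells taken from tumours and cells in medium. Of the 8 genes tested in WT GFP+ cells against culture, 5 were called higher and 1 lower. In that comparison 65.6% of all genes were called, 30.3% higher and 35.3% lower. Of the same 8 genes in Pfp/Rag2-/- GFP+ cells against culture, 3 were called higher and 0 lower, where 72.2% of all genes were called, 35.1% higher and 37.1% lower. The groups did not overlap for 4 of the 8 genes in Pfp/Rag2-/- hosts, against 76.8% of all genes, and for 6 of the 8 in WT hosts, against 71.9%. Both comparisons use the same cultured libraries. Sox9 fell under the filter on low values (10 or more in 3 or more of the 6 libraries) in both.

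Myt1, which antagonises Notch target genes in progenitors, showed the widest difference of the 9. It was at 2604, 2831 and 2804 in Pfp/Rag2-/- GFP+ cells, at 1394, 1690.3 and 2195 in WT GFP+ cells, and at 27.4, 29.2 and 31.5 in culture, the last from 29 to 33 reads. Every GFP+ tumour library stood far above every cultured library. The log2 difference from culture was 6.50 (SE 0.08, adjusted p = 2.66e-10, limma) in Pfp/Rag2-/- hosts, a fold of 90.6, and 5.84 (SE 0.16, adjusted p = 4.61e-08, limma) in WT hosts, a fold of 57.1.

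Olig1 and Olig2 were about as far apart from culture as each other. Olig1 was at 27979, 30998 and 26826 in Pfp/Rag2-/- GFP+ cells, at 17415, 17711 and 24646 in WT GFP+ cells, and at 10512, 12190 and 12187 in culture. Neither tumour group overlapped with culture. The log2 difference was 1.30 (SE 0.07, adjusted p = 5.66e-07, limma) in Pfp/Rag2-/- hosts and 0.76 (SE 0.13, adjusted p = 0.000945, limma) in WT hosts. Olig2 was at 10607, 11595 and 10249.8 in Pfp/Rag2-/- GFP+ cells, at 6622, 6539 and 9553 in WT GFP+ cells, and at 4324, 4598 and 4375 in culture. Its log2 difference was 1.29 (SE 0.05, adjusted p = 7.35e-08, limma) in Pfp/Rag2-/- hosts and 0.75 (SE 0.13, adjusted p = 0.00110, limma) in WT hosts. For both genes WT GFP+ library 3 stood above the other two, and every Pfp/Rag2-/- GFP+ library stood above it.

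Sox10 did not follow Olig1 and Olig2. It was at 18668, 19303 and 16584 in Pfp/Rag2-/- GFP+ cells, at 13150.1, 13486 and 16666 in WT GFP+ cells, and at 17000.2, 17045 and 16265 in culture. The WT GFP+ level was called lower than culture (log2 -0.22, SE 0.09, adjusted p = 0.0480, limma), although the groups overlapped. That call was lost with edgeR (adjusted p = 0.135), with DESeq2 (adjusted p = 0.0976) and without either WT GFP+ library 1 or 2 or any cultured library (adjusted p 0.0851 to 0.148). In Pfp/Rag2-/- hosts the difference was 0.11 (95% interval -0.02 to 0.25, adjusted p = 0.108, limma), and it was called with DESeq2 (0.15, adjusted p = 0.0119).

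Set against Sox10 in the same library, the Olig genes and Myt1 separated tumour from culture without reference to the size factors. Olig1 stood at 157% ± 6.55 of Sox10 in Pfp/Rag2-/- GFP+ cells, 137% ± 9.25 in WT GFP+ cells and 69.4% ± 6.79 in culture. Olig2 stood at 59.6% ± 2.53, 52.1% ± 4.66 and 26.4% ± 0.870 in the same 3 groups. Myt1 stood at 15.2% ± 1.54, 12.1% ± 1.34 and 0.175% ± 0.0166. The 3 cultured libraries lay below all other libraries for each of these ratios.

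**Figure D2:**
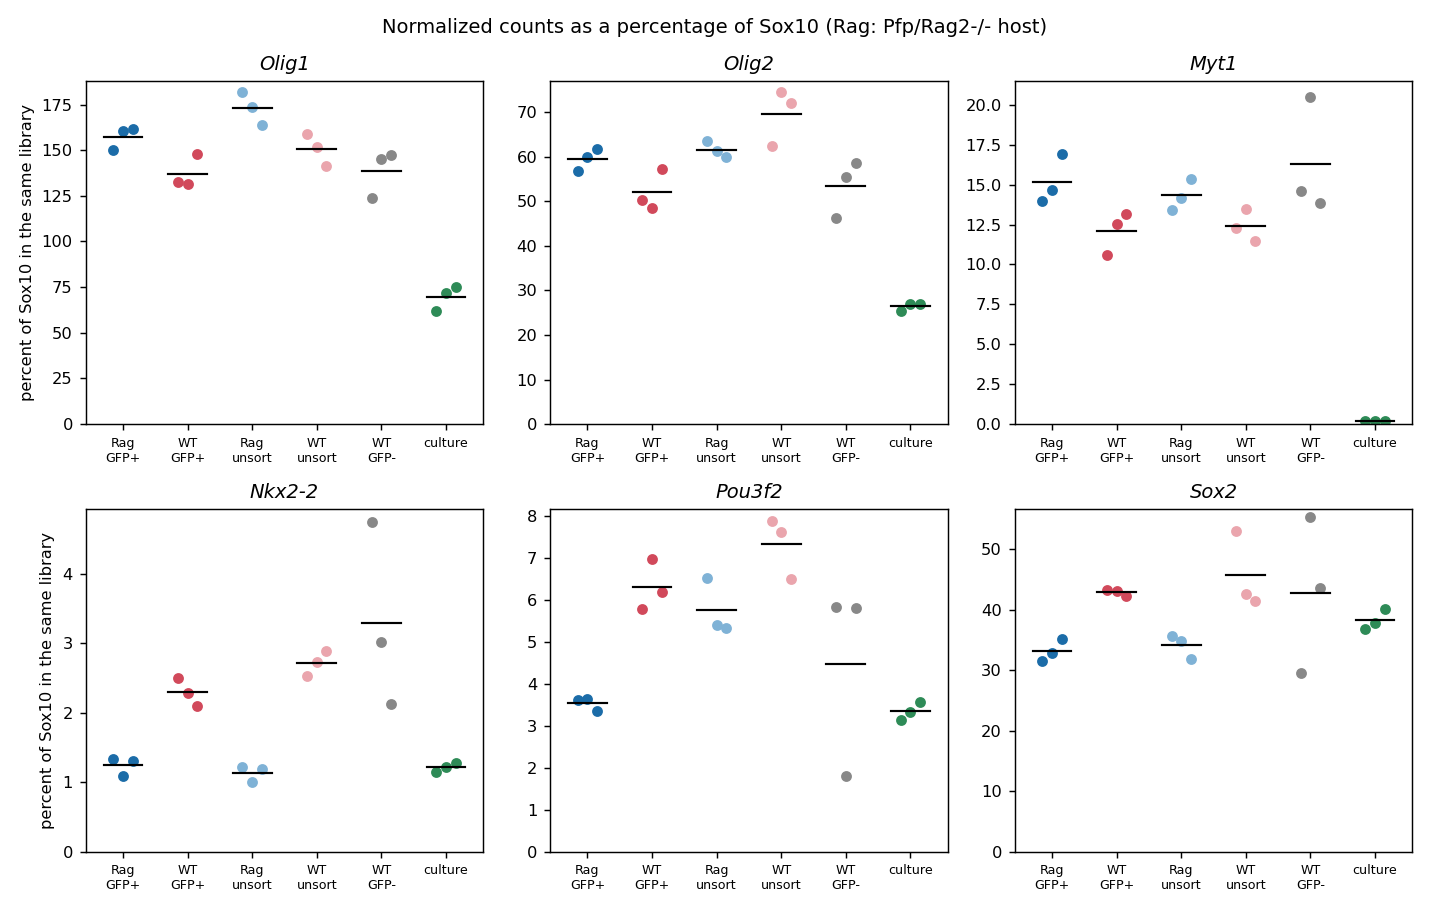
Normalized counts of 6 genes as a percentage of Sox10 in the same library, for each of 18 libraries (points) and as group means (lines), in the 6 groups named below each panel. Olig1, Olig2 and Myt1 are lowest in the 3 cultured libraries, Nkx2-2 is near 1% of Sox10 in culture and Pfp/Rag2-/- hosts and above 2% in WT hosts, and the GFP- libraries vary more than those of other groups for Nkx2-2, Pou3f2 and Sox2.

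Nkx2-2 and Pou3f2 were called higher than culture in WT hosts. Nkx2-2 was at 249, 210.3 and 216 in Pfp/Rag2-/- GFP+ cells, at 329, 307 and 350 in WT GFP+ cells, and at 195, 207 and 208 in culture. WT GFP+ libraries stood above all others of these 3 groups, and the lowest Pfp/Rag2-/- library was only just above the highest cultured one. The log2 difference from culture was 0.14 (95% interval -0.07 to 0.36, adjusted p = 0.201, limma) in Pfp/Rag2-/- hosts and 0.69 (SE 0.09, adjusted p = 0.000224, limma) in WT hosts. Pou3f2 was at 675, 705 and 555 in Pfp/Rag2-/- GFP+ cells, at 760, 941 and 1033 in WT GFP+ cells, and at 534, 567 and 580 in culture. Its log2 difference was 0.20 (95% interval -0.01 to 0.40, adjusted p = 0.0788, limma) in Pfp/Rag2-/- hosts and 0.69 (SE 0.11, adjusted p = 0.000607, limma) in WT hosts. The Pfp/Rag2-/- difference of Pou3f2 was called with TMM scaling (0.24, adjusted p = 0.0396) and without Pfp/Rag2-/- GFP+ library 3 (0.30, adjusted p = 0.00428).

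Sox2 and Zeb1 had no called difference from culture in either host. Sox2 was at 5897, 6348 and 5826 in Pfp/Rag2-/- GFP+ cells, at 5693, 5812 and 7053 in WT GFP+ cells, and at 6259, 6434 and 6533 in culture, and the groups overlapped. Its log2 difference from culture was -0.09 (95% interval -0.19 to 0.01, adjusted p = 0.0893, limma) in Pfp/Rag2-/- hosts and -0.06 (95% interval -0.24 to 0.12, adjusted p = 0.543, limma) in WT hosts. The sign turned with quantile scaling (0.19 and 0.09), where the Pfp/Rag2-/- value was called higher (adjusted p = 0.00241). Sox2 was called lower without Pfp/Rag2-/- GFP+ library 2 (-0.13, adjusted p = 0.0184) and, in WT hosts, without WT GFP+ library 3 (-0.16, adjusted p = 0.00762). Zeb1 averaged 1766 ± 67.7 in Pfp/Rag2-/- GFP+ cells, 1721 ± 40.8 in WT GFP+ cells and 1868 ± 60.0 in culture. Its log2 difference was -0.08 (95% interval -0.19 to 0.02) in Pfp/Rag2-/- hosts and -0.12 (95% interval -0.23 to -0.01, adjusted p = 0.0611, limma) in WT hosts, neither called.

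**Figure D3:**
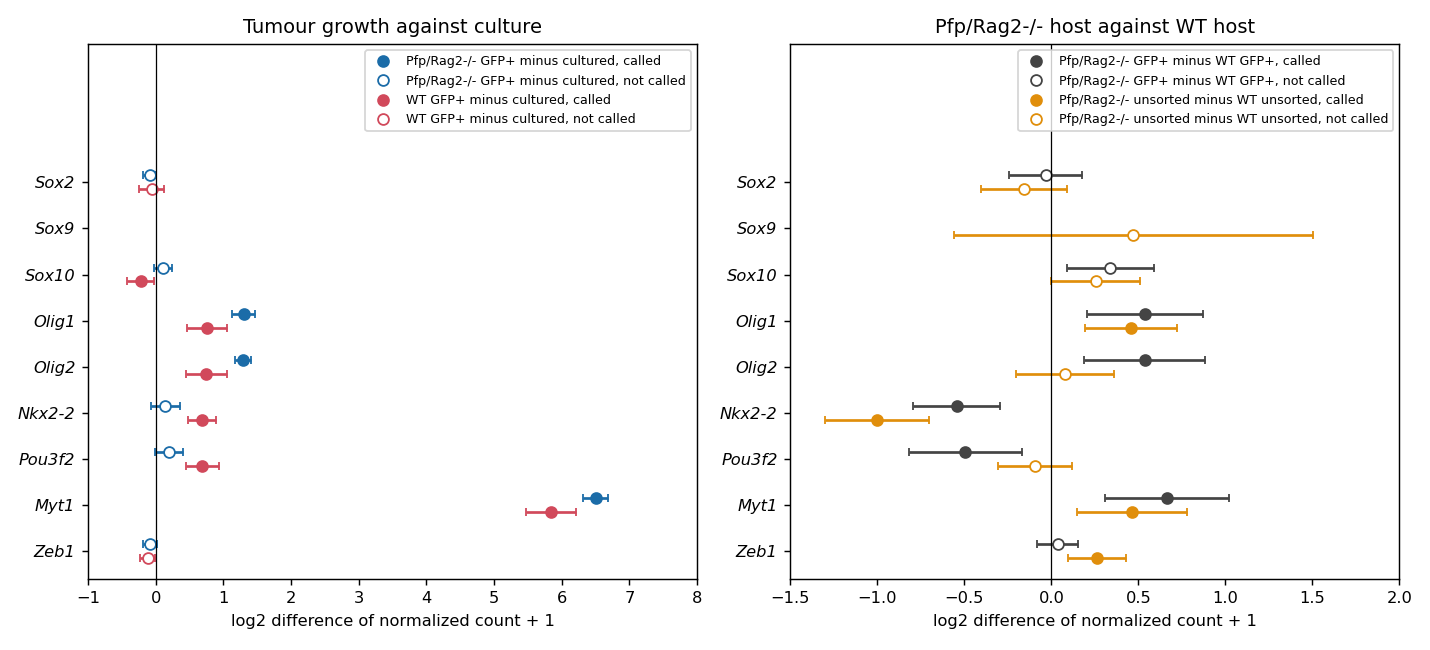
Log2 differences of normalized count plus 1 with 95% confidence intervals, for tumour against culture (left) and Pfp/Rag2-/- host against WT host (right). Filled points passed an adjusted p under 0.05. Myt1 stands at 6.50 and 5.84 against culture, Olig1 and Olig2 at 0.75 to 1.30, and Nkx2-2 is the gene furthest below 0 between hosts, while Sox9 was tested between hosts only in unsorted cells.

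Other regulators and markers of progenitors differed from culture in both directions. Of 9 SOX genes tested in WT GFP+ cells against culture, 2 were higher and 5 lower, with a median log2 difference of -0.22, against -0.04 over all genes. Of 10 tested in Pfp/Rag2-/- GFP+ cells, 4 were higher and 3 lower, with a median of 0.11, against -0.01 over all genes. Over all genes 65.6% were called in the WT comparison and 72.2% in the Pfp/Rag2-/- comparison. Sox8, which with Sox9 and Sox10 forms the SOXE group, averaged 1515 ± 152 in Pfp/Rag2-/- GFP+ cells, 381 ± 205 in WT GFP+ cells and 39.1 ± 7.97 in culture (log2 5.25 and 3.14 over culture). Sox11, a factor of immature neurons and progenitors, averaged 218 ± 44.4, 260.1 ± 72.5 and 0.943 ± 1.63 in the same groups. Sox5 and Sox13, SOXD genes, were lower in tumour cells, at 19.6 ± 9.45, 17.6 ± 6.27 and 117 ± 5.14 for Sox5 and 46.2 ± 7.41, 38.5 ± 10.2 and 188 ± 24.9 for Sox13. Sox4 was also lower in both hosts (log2 -1.11 in Pfp/Rag2-/- hosts and -0.95 in WT hosts).

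Among 35 further regulators of neural progenitors, 27 were tested in Pfp/Rag2-/- GFP+ cells, of which 11 were higher and 13 lower than culture. Of 25 tested in WT GFP+ cells, 8 were higher and 10 lower, and the medians were -0.05 and -0.04, close to those of all genes. The shares of all genes called were 72.2% in Pfp/Rag2-/- hosts and 65.6% in WT hosts. Zfp488, a partner of Olig2 in oligodendrocyte differentiation, averaged 971 ± 35 in Pfp/Rag2-/- GFP+ cells, 328 ± 112 in WT GFP+ cells and 53.3 ± 11.9 in culture. Id3, an inhibitor that sequesters the partners of basic helix-loop-helix proteins, was lower, at 2264 ± 146, 2561 ± 374 and 6301 ± 120, and Id1 was lower too (log2 -0.88 in Pfp/Rag2-/- hosts and -1.34 in WT hosts). Nfia and Nfib, which promote glial fate, were lower than in culture, with log2 differences of -1.37 and -1.22 in Pfp/Rag2-/- hosts and of -0.89 and -0.77 in WT hosts. Sall2, grouped with Sox2, Olig2 and Pou3f2 in the human work named above, averaged 751 ± 75.4, 837 ± 116 and 1166 ± 15.3 and was called lower in both hosts (log2 -0.64 and -0.49).

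Markers of oligodendrocyte precursors and progenitors split in the same way. Gpr17, a receptor of committed precursors, averaged 6221 ± 314 in Pfp/Rag2-/- GFP+ cells, 2724 ± 1775 in WT GFP+ cells and 24.0 ± 7.09 in culture (log2 8.001 and 6.62 over culture). Lhfpl3 was higher in both hosts (log2 1.95 and 2.72), and Pdgfra, the receptor that marks early precursors, was lower (log2 -1.03 and -0.86). Dll1, a Notch ligand, averaged 469 ± 32.0, 515 ± 145 and 25.6 ± 3.58 in the 3 groups. Ptprz1, a receptor phosphatase of glial progenitors, averaged 6951 ± 288, 6558 ± 1614 and 1318 ± 67.9. Nes and Vim, intermediate filaments of neural stem cells, were lower, with Nes at 6058 ± 763, 5807 ± 225 and 15410.2 ± 1474. Of 16 progenitor markers tested in each host, 5 were higher and 8 lower in Pfp/Rag2-/- hosts, and 6 were higher and 8 lower in WT hosts. Among all genes 72.2% and 65.6% were called in these comparisons.

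Markers of mature oligodendrocytes, brain cells that also carry Olig1, Olig2 and Sox10, differed from culture too, in both directions. Of 12 markers 11 were tested, of which 6 were called higher and 5 lower in Pfp/Rag2-/- GFP+ cells, and 5 higher and 5 lower in WT GFP+ cells, where 72.2% and 65.6% of all genes were called in these comparisons. Mobp, a myelin gene, had no read in culture and was at 918, 426 and 785 in Pfp/Rag2-/- GFP+ cells and at 115, 39.9 and 1501 in WT GFP+ cells. The 12 oligodendrocyte markers summed to 13514 to 15087 in Pfp/Rag2-/- GFP+ cells, 6299 to 12533 in WT GFP+ cells and 37344 to 39634 in culture. Mbp made up most of the sum in culture, at 24809 ± 1710. Among WT GFP+ libraries, library 3 was highest for Mobp and for each of the 9 genes but Zeb1, and library 2 was lowest for Mobp. Marker sums of astrocytes, neurons, endothelium, and pericytes and fibroblasts were also highest in library 3. Those of T cells and of the myeloid markers without Tmem119 were highest in library 1. The part of oligodendrocytes in the differences of Olig1, Olig2 and Myt1 was not tested.

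Host genotype was compared in sorted GFP+ cells to ask which factors differed when tumours grew in a host without perforin and without mature T and B cells. Of 8 genes tested, 3 were called higher in Pfp/Rag2-/- than in WT hosts, 2 lower and 3 not, where 30.4% of all genes were called, 15% higher and 15.3% lower. The per-library values are those given above against culture. Myt1 was higher (log2 0.67, SE 0.15, adjusted p = 0.0175, limma), as were Olig1 (0.54, SE 0.14, adjusted p = 0.0276) and Olig2 (0.54, SE 0.15, adjusted p = 0.0325). Nkx2-2 was lower (-0.54, SE 0.11, adjusted p = 0.00998), 1.46-fold, as was Pou3f2 (-0.49, SE 0.14, adjusted p = 0.0335). Sox10 missed the threshold (0.34, SE 0.11, adjusted p = 0.0503) and passed it with DESeq2 (0.32, adjusted p = 0.006845). With a filter at 50, quantile scaling or a robust eBayes, as with DESeq2, 6 of the 8 genes were called, against 5 here. Sox2 and Zeb1 differed by -0.03 (95% interval -0.24 to 0.18) and 0.04 (95% interval -0.08 to 0.16).

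The groups did not overlap for the 5 called genes, as was so for 48.7% of all genes tested. These calls rested on few libraries. Nkx2-2 kept its call without each of the 6 libraries in turn. Olig1 and Olig2 lost theirs without WT GFP+ library 1 (adjusted p = 0.0864 and 0.0987), WT GFP+ library 2 (0.0965 and 0.107) or any Pfp/Rag2-/- GFP+ library (0.0539 to 0.107). Myt1 lost its call without WT GFP+ library 2 or Pfp/Rag2-/- GFP+ library 2 or 3 (0.06287 to 0.06447), and Pou3f2 without each library except WT GFP+ library 1 (0.0546 to 0.105). With both GFP+ libraries numbered 1 left out, a setting added once the values were known, 3 of the 8 genes were called. With all 18 libraries in 1 fit none was called, where the GFP- libraries, with coefficients of variation from 72.8% to 121% for Sox2, Sox10, Olig1, Olig2, Nkx2-2, Pou3f2 and Myt1, entered the spread.

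In unsorted tumours the host difference was called in the same direction as in sorted cells for Myt1, Olig1 and Nkx2-2. The other genes tested in both also kept their sign, without a call in both. Of 9 genes tested, 3 were called higher in Pfp/Rag2-/- than in WT tumours, 1 lower and 5 not, where 29.9% of all genes were called, 14.8% higher and 15.1% lower. Nkx2-2 was at 182, 180.3 and 211 in Pfp/Rag2-/- tumours and at 344, 398 and 408 in WT tumours, with no overlap. Its log2 difference was -1.0 (SE 0.13, adjusted p = 0.00181, limma), a 2-fold lower level. Olig1 was at 27115, 31123 and 29168 in Pfp/Rag2-/- tumours and at 21610, 22087 and 19988 in WT tumours (log2 0.46, SE 0.11, adjusted p = 0.0220, limma). Myt1 was at 1999, 2542 and 2734 in Pfp/Rag2-/- tumours and at 1665, 1962 and 1624 in WT tumours, where the lowest of one group lay just above the highest of the other (log2 0.46, SE 0.13, adjusted p = 0.0380, limma). Zeb1 averaged 1990 ± 63.5 in Pfp/Rag2-/- tumours and 1662 ± 82.0 in WT tumours (log2 0.26, SE 0.07, adjusted p = 0.0308, limma).

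The groups did not overlap for these 4 genes and Sox10, 5 of 9, against 48.4% of all genes. Sox10 averaged 16869.8 ± 1703 in Pfp/Rag2-/- tumours and 14099 ± 494 in WT tumours and was not called (log2 0.25, adjusted p = 0.117, limma), nor were Sox2 (-0.16, adjusted p = 0.286) and Sox9 (0.47, 95% interval -0.56 to 1.50).

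Olig2 and Pou3f2 did not pass the test in unsorted tumours. Olig2 averaged 10377 ± 805 in Pfp/Rag2-/- tumours and 9850.1 ± 1237 in WT tumours (log2 0.08, 95% interval -0.20 to 0.36), and Pou3f2 averaged 964 ± 13.1 and 1032 ± 100.2 (log2 -0.09, 95% interval -0.31 to 0.12). The difference between the sorted and the unsorted host effect was tested as an interaction over 12 libraries. None of the 9 genes was called with limma, edgeR or DESeq2. With limma 0.934% of all genes were called, 0.223% with a host difference higher in sorted than in unsorted cells and 0.712% with one that was lower. The lowest adjusted p-values of the 9 (limma) were those of Nkx2-2 (0.46, adjusted p = 0.150), Zeb1 (-0.22, adjusted p = 0.161), Pou3f2 (-0.40, adjusted p = 0.229) and Olig2 (0.46, adjusted p = 0.239). Without WT GFP+ library 3, the Olig2 difference was 0.64 and was called (adjusted p = 0.0419). Nkx2-2 in unsorted tumours kept its call in each fit that left out a library. Olig1 lost it without WT unsorted library 3 or Pfp/Rag2-/- unsorted library 2 or 3 (adjusted p 0.0713 to 0.104). Myt1 lost it without these or WT unsorted library 1 (0.0583 to 0.129), and Zeb1 without WT unsorted library 3 or any Pfp/Rag2-/- unsorted library (0.0722 to 0.127).

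Several precursor genes differed between hosts alongside Myt1 and Olig1. Sox8 was higher in Pfp/Rag2-/- GFP+ cells (log2 2.12, SE 0.34, adjusted p = 0.00481, limma) and in unsorted Pfp/Rag2-/- tumours (1.58, SE 0.145). Cspg4, the NG2 proteoglycan of precursors, averaged 8562 ± 177 in Pfp/Rag2-/- GFP+ cells and 3777 ± 447 in WT GFP+ cells, and 7844 ± 1157 and 3305 ± 104 in unsorted tumours of the same hosts. C1ql1, Gpr17 and Zfp488 were also higher in Pfp/Rag2-/- GFP+ cells (log2 1.85, 1.38 and 1.62), while Lhfpl3 was lower (-0.77). Tcf12, a partner of basic helix-loop-helix proteins, averaged 20403 ± 1576 in Pfp/Rag2-/- GFP+ cells and 12460 ± 577 in WT GFP+ cells. Dll3 and Bcan were higher in sorted Pfp/Rag2-/- cells (log2 2.34 and 1.46), and Notch1, Jag1 and Vim were lower (-0.77, -0.65 and -0.69). In unsorted tumours the means of Dll3, Bcan and Vim kept these directions. Notch1, Jag1 and Lhfpl3 were not lower there in Pfp/Rag2-/- hosts. Unsorted Notch1 averaged 2294 ± 307.5 in Pfp/Rag2-/- and 2219 ± 452 in WT hosts, Jag1 1010 ± 36.9 and 958 ± 230, and Lhfpl3 1367 ± 175.5 and 1161 ± 80.0. Of the 5 precursor markers tested in sorted cells, 3 were higher and 1 lower, with a median of 1.19, against 0.02 over all genes. Of 27 other regulators 5 were higher and 5 lower, and of 11 SOX genes 2 were higher and 0 lower. Over all genes 30.4% were called in this comparison, 15% higher and 15.3% lower.

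Genes listed as markers of other cells also differed between the sorted groups. The 8 markers of pericytes and fibroblasts summed to 5151, 3121 and 2093 in Pfp/Rag2-/- GFP+ cells and to 490, 537 and 936 in WT GFP+ cells. In culture, without host cells, they summed to 2161 to 2336, of which Col1a1 held 2224 ± 82.8. Col1a1 was at 2786, 2223 and 1489 in Pfp/Rag2-/- GFP+ cells and at 406, 444 and 594 in WT GFP+ cells. Dcn, a defining fibroblast gene, was at 98.6, 121 and 85.7 in Pfp/Rag2-/- GFP+ cells and at 2.87, 0.950 and 3.68 in WT GFP+ cells. Opalin, a marker of mature oligodendrocytes, was at 216, 174 and 199 in Pfp/Rag2-/- GFP+ cells and at 12.5, 12.4 and 13.8 in WT GFP+ cells. The T cell markers (5 genes) summed to 55.7, 22.96 and 33.2 in Pfp/Rag2-/- GFP+ cells and to 252, 27.6 and 71.8 in WT GFP+ cells. In unsorted tumours the 7 myeloid markers without Tmem119 summed to 3139 to 3949 in Pfp/Rag2-/- hosts and 9610 to 11579 in WT hosts. Tmem119 was at 1460.5, 1729 and 1312 in unsorted Pfp/Rag2-/- tumours and at 2598, 13640 and 14211 in unsorted WT tumours. The part of these cells in the host differences of the 9 genes was not tested.

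Sorted GFP+ cells were compared with unsorted cells of the same host. Sox9 passed the filter on low values through its unsorted libraries, where it was high, and is left out of the counts. Of the other 8 genes, 2 were called lower in Pfp/Rag2-/- GFP+ cells and 0 higher, where 30.2% of all genes were called, 11.1% higher and 19.1% lower. In WT hosts 0 of the 8 were called with limma, edgeR or DESeq2, and 0 had an unadjusted p under 0.05 with limma, where 16.8% of all genes were called, 6.46% higher and 10.3% lower. Without WT GFP+ library 3, Olig2 was called lower there (log2 -0.57, adjusted p = 0.0387, limma). The groups did not overlap for 2 of the 8 genes in Pfp/Rag2-/- hosts, against 48% of all genes, and for 0 of the 8 in WT hosts, against 40.2%. The share of all calls that were higher in GFP+ cells moved with the scaling, being 36.7% in Pfp/Rag2-/- hosts and 38.6% in WT hosts with the deposited size factors, and 50.8% and 51.5% with quantile scaling. Pou3f2 was lower in Pfp/Rag2-/- GFP+ cells, at 675, 705 and 555, against 973, 969 and 949 in unsorted Pfp/Rag2-/- tumours (log2 -0.59, SE 0.09, adjusted p = 0.00457, limma). Zeb1 was called lower there by a small margin (log2 -0.17, SE 0.05, adjusted p = 0.0337, limma), a call lost with edgeR and DESeq2 (adjusted p = 0.141 and 0.149) and without Pfp/Rag2-/- GFP+ library 1 or 2 or Pfp/Rag2-/- unsorted library 2 or 3 (0.0744 to 0.108).

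Sox9 reads were most numerous in unsorted tumours. The gene had 10, 7 and 31 reads in Pfp/Rag2-/- GFP+ cells, 2, 0 and 9 in WT GFP+ cells, 233, 100 and 73 in unsorted Pfp/Rag2-/- tumours, 62, 82 and 125 in unsorted WT tumours, 16, 1 and 11 in GFP- cells, and 0 in all 3 cultured libraries. A floor of 3 reads per library is a level of 2.84 in culture. Against it Sox9 was at least 42.6-fold higher in unsorted cells of Pfp/Rag2-/- hosts and at least 28.1-fold higher in those of WT hosts, for counting error only. No test of GFP+ against unsorted cells is given for it.

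In unsorted tumours the astrocyte sum had the order of Sox9 within each host, but not across hosts or over all groups. The 8 astrocyte markers summed to 12637, 6077 and 5514 in unsorted Pfp/Rag2-/- libraries 1, 2 and 3, where Sox9 was at 207, 90.6 and 65.8. They summed to 5546, 6287 and 8201 in unsorted WT libraries 1, 2 and 3, where Sox9 was at 57.2, 73.8 and 109. Within each host both had the same order over the 3 libraries. In culture, where Sox9 had no read, the same 8 markers summed to 11934, 11206 and 11055, of which Fgfr3 held 7711 ± 499.6 and Gja1 2789 ± 88.5. Aqp4, the water channel of astrocytes, averaged 25.4 ± 11.9 in Pfp/Rag2-/- GFP+ cells, 15.4 ± 23.4 in WT GFP+ cells, 501 ± 267 in unsorted Pfp/Rag2-/- tumours, 511 ± 197 in unsorted WT tumours and 0.632 ± 0.547 in culture. The 8 neuron markers summed to 332 to 417, 319 to 514, 1871 to 6461 and 1035 to 1846 in the same 4 groups, and to 63.3 to 85.9 in culture. Syt1 made up most of the sum in GFP+ cells, at 279 ± 36.7 in Pfp/Rag2-/- and 350 ± 72.4 in WT hosts. It was also the largest part in culture, at 60.6 ± 9.98. Over unsorted Pfp/Rag2-/- libraries 1, 2 and 3 the neuron markers summed to 6461, 2117 and 1871, in the order of Sox9. Over unsorted WT libraries 1, 2 and 3 they summed to 1074, 1035 and 1846, not in the order of Sox9. Within each host the oligodendrocyte sums had the same order as the neuron sums. The part of astrocytes in the Sox9 level was not tested. The SOX genes Sox1 and Sox21, also of neural stem cells, were low in WT GFP+ cells as well, at 0.921 ± 1.595 and 0.626 ± 0.543, against 22.0 ± 9.64 and 15.8 ± 2.92 in unsorted WT tumours.

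The GFP- cells of WT tumours held little of most of these factors. All 8 genes tested were higher in WT GFP+ than in GFP- cells with no overlap, where 81.4% of all genes did not overlap and 76.4% of all genes were called, 33.7% higher and 42.7% lower. With quantile scaling 56.6% of all calls were higher in GFP+ cells, against 44.1% with the deposited size factors, and it moved the median of all genes by 0.43, TMM scaling by 0.12, edgeR by 0.12 and DESeq2 by 0.12 on the log2 scale. Log2 differences ran from 4.10 for Nkx2-2 (SE 0.54) to 5.20 for Pou3f2 (SE 0.99), with Sox10 at 4.63 (SE 0.69, adjusted p = 0.000956, limma). Zeb1 differed by only 1.08 (SE 0.12, adjusted p = 0.000289, limma), at 1675, 1753 and 1735 in WT GFP+ cells and 833, 701 and 926 in GFP- cells.

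The GFP- libraries were unlike one another. GFP- library 3 held 12.9% of the WT GFP+ mean of Sox10, and libraries 1 and 2 held 2.79% and 1.77%. Olig1 (2.5%, 1.86% and 13.7% in libraries 1, 2 and 3), Olig2 (2.47%, 1.87% and 14.4%), Sox2 (1.93%, 2.29% and 13.1%) and Myt1 (3.35%, 2.98% and 14.6%) had shares of the same size, so 7 of the 8 genes stood at about 12% to 15% in library 3. Pou3f2 ranged from 0.507% in library 2, from 3 reads, to 11.8% in library 3. Zeb1 stood apart, at 48.4%, 40.7% and 53.8%. Relative to Sox10, Olig1 stood at 139% ± 13.0, Olig2 at 53.4% ± 6.34 and Myt1 at 16.3% ± 3.63 in GFP- cells. These means lay within the range of the 4 GFP+ and unsorted tumour means for Olig1 and Olig2 and above it for Myt1, which was at 20.5% in library 2. Whether these reads came from tumour cells in the GFP- gate was not tested.

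**Figure D4:**
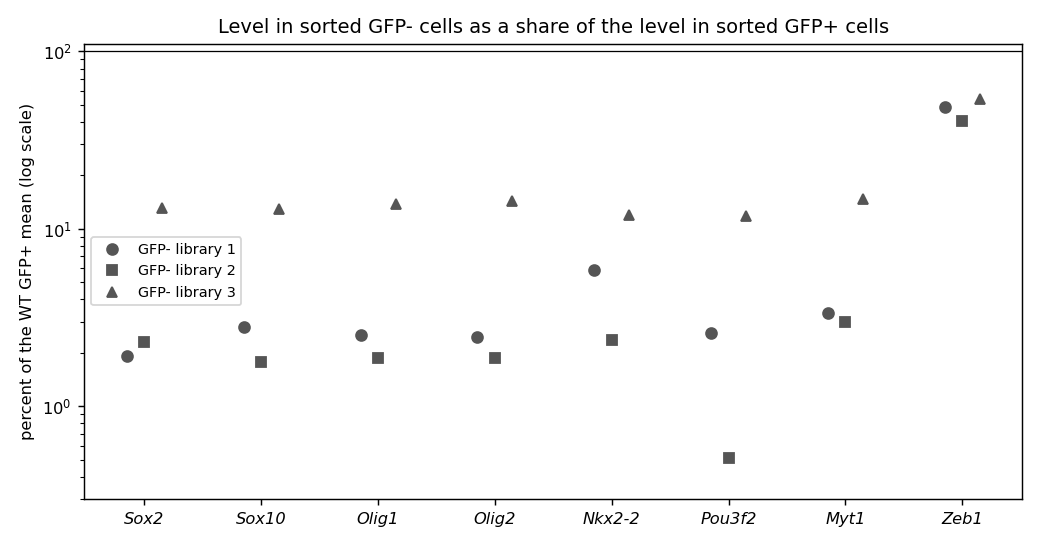
Level of 8 genes in each of the 3 GFP- libraries as a percentage of the WT GFP+ mean, on a log axis, with a line at 100%. Library 3 (triangles) holds 11.8% to 14.6% for all genes but Zeb1, libraries 1 and 2 hold 0.507% to 5.82%, and Zeb1 is at 40.7% to 53.8% in all 3.

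Zeb1 (ENSMUSG00000024238, chr18:5591860-5775467 of GRCm38, plus strand) is best known for repressing E-cadherin during epithelial-mesenchymal transition. Genes of that programme were also compared with culture, where Zeb1 did not pass the test. Cdh1, E-cadherin, was at 47.5, 8.27 and 6.45 in Pfp/Rag2-/- GFP+ cells and at 82.4, 24.7 and 25.8 in WT GFP+ cells. It averaged 2.21 ± 1.10 in culture and 1767 ± 145 in GFP- cells. In both hosts its highest GFP+ library was library 1, as for the 7 myeloid markers without Tmem119. Cdh2, N-cadherin, averaged 1140 ± 14.9 in Pfp/Rag2-/- GFP+ cells, 1738 ± 148 in WT GFP+ cells and 8858 ± 421 in culture (log2 -2.96 and -2.35). Epcam averaged 743 ± 39.4, 694 ± 5.56 and 198 ± 20.6, and Twist1 347 ± 50.7, 426 ± 44.1 and 174 ± 20.9. Snai1 was lower in both hosts (log2 -1.35 and -0.77), as was Zeb2 (-0.61 and -0.42). Of 7 genes tested in Pfp/Rag2-/- hosts, 3 were higher and 4 lower, and of 8 in WT hosts, 4 were higher and 4 lower. Against culture, 72.2% of all genes were called in Pfp/Rag2-/- hosts and 65.6% in WT hosts. Zeb2 averaged 2079 ± 233 in WT GFP+ cells and 11615 ± 2490.4 in GFP- cells, the reverse of the order of Zeb1.

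Some genes overlap these factors in the annotation. The counting's use of strand is not given, so reads of antisense partners cannot be told from those of the gene itself. Sox2 lies within Sox2ot, a noncoding gene on the same strand, which had 653, 496 and 533 reads in Pfp/Rag2-/- GFP+ cells, 302, 267 and 391 in WT GFP+ cells, and 139, 125 and 120 in culture, few beside the 5944 to 7659 of Sox2 in WT GFP+ cells. Nkx2-2os, antisense to Nkx2-2, had 53 to 59 reads in Pfp/Rag2-/- GFP+ cells, 45 to 62 in WT GFP+ cells and 124 to 161 in culture, against 206 to 220 for Nkx2-2 in culture. The other antisense gene there, 6430503K07Rik, had 29 to 51 reads outside the GFP- libraries. Gm15966, antisense to Olig1, had at most 1 read in any library, and Gm10125, Gm16147 and Gm22709, which overlap Zeb1, at most 26.

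Across all 18 libraries the 9 genes fell in with different partners, described by Pearson's r on log2 of the level plus 1. The GFP- libraries, low for most of them, set much of each r, and libraries of one group are not independent conditions. Olig1 and Olig2 were each other's closest gene (r = 0.997), followed by Ncald (0.995) for Olig1 and Tspan12 (0.996) for Olig2, with Rnf144a next for both. Sox2 was closest to Efs, Rhox2g and Dppa4 (0.997 to 0.996), and Sox10 to Syde1, Ptk7 and Obsl1 (each 0.997). Nkx2-2 was closest to Rcn1, Il17rc and Lrr1 (0.988, 0.986 and 0.984), Pou3f2 to Prtg, Alx1 and Rgma (0.991, 0.989 and 0.988) and Zeb1 to Selenoi, Igsf11 and Zfp30 (each 0.994). Myt1 was closest to Cacng5, H19 and Myo7b (0.988, 0.988 and 0.987), and Sox9 to Slc4a4, Acsl6 and Scg3 (0.983, 0.974 and 0.974).

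Over the 15 libraries without GFP- cells, a subset chosen after the values were seen, the agreement among the 9 genes was narrower. Olig1 and Olig2 stayed close (r = 0.953), and Myt1 followed both (0.907 and 0.919). Sox10 correlated with Olig1 at 0.274 and with Nkx2-2 at -0.648. For Nkx2-2 the closest genes were then H2-Eb2 (0.973) and H2-DMb1 (0.969), both of MHC class II, and Dbnl (0.968), which is not. H2-Eb2 averaged 1.83 in Pfp/Rag2-/- GFP+ cells, 332 in WT GFP+ cells and 0.314 in culture, and H2-DMb1 averaged 368, 2224 and 308. For Olig2 the closest was Cnp (0.989), a myelin enzyme of the oligodendrocyte lineage, at 7656, 4985 and 2783 in the same 3 groups. For Myt1 it was Brinp3 (0.998), at 1273, 789 and 0.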

How the data were processed

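The table held 1 deposited signal per gene and library, a normalized count that the authors made by dividing read counts by DESeq2 size factors, per the submitters' processing notes, which also name STAR 2.5.2b and the GRCm38 build. Libraries were made with a directional mRNA kit and read on a NextSeq 500, per the labels' protocols. Sources used here do not name the read counter, its strand setting or the annotation. All values were whole multiples of 1 read in each library (100% within 0.05 reads), so reads were recovered. Totals were 19172814 to 21141662 per library, with size factors of 0.649 to 0.761 in GFP- and 1.04 to 1.15 in other libraries. Gene names (48349 of 48795) and coordinates came from GENCODE vM21.

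Each comparison was fitted to its own 6 libraries by lmFit and a trended eBayes (limma 3.58.1, R 4.3.3) on log2 of the normalized count plus 1, for genes at 10 or more in at least 3 of them. P-values were two-sided and Benjamini-Hochberg adjusted over all genes tested. The code was tested on simulated data. Alternatives were a pseudocount of 10, no filter, a filter at 50, TMM, quantile scaling, a robust eBayes, 1 fit over all 18 libraries, a replicate block, each library left out in turn, and count tests of the recovered reads by edgeR 4.0.16 (quasi-likelihood) and DESeq2 1.42.0. Same-numbered deviations of the sorted GFP+ groups correlated across hosts at 0.616, 0.483 and 0.102, all over a cut of 0.1, the last barely. In no other comparison did all pass that cut. The labels give only replicate numbers, so whether libraries were paired cannot be told.

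The 9 genes and the 12 gene lists were chosen with earlier results of these data known, and 1 listed name was not in the table. Named genes are the 9, the 3 most alike each over 18 libraries (mean of at least 100 in their highest group), up to 4 called members of a list with the largest differences, list members whose values are given, and overlapping genes. Outside that rule, the genes most alike over 15 libraries were chosen after their values were seen. Promoters are RefSeq's on GRCm38.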

Additional observations from a re-analysis of the deposited data

How the results depend on the processing

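All 8 genes tested kept their calls between WT GFP+ and GFP- cells under each alternative run, as did Myt1 against culture. With all 18 libraries in 1 fit, 1 of the 9 genes was called in WT GFP+ cells against culture, 0 between hosts in sorted cells, 2 in unsorted cells and 1 in Pfp/Rag2-/- GFP+ against unsorted cells. Genes called over the whole table were then 2971 between sorted hosts, 4495 between unsorted hosts, 4430 for WT GFP+ against unsorted, 2686 for Pfp/Rag2-/- GFP+ against unsorted and 34 for the interaction. Against culture, 5 of the 9 genes were called in Pfp/Rag2-/- GFP+ cells with TMM, quantile scaling or edgeR, and 2 between unsorted hosts with no filter. A filter at 50 called 1619 genes between WT GFP+ and unsorted cells. For the interaction, 151 genes were called, against 61 with no filter, 298 with a filter at 50, 76 with TMM, 270 with quantile scaling, 70 with edgeR and 1216 with DESeq2. Counts of the 9 genes for GFP+ against unsorted cells include Sox9, which passed the filter through its unsorted libraries. The causes were not tested.

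Leaving out 1 library in turn gave 3 to 5 of the 9 genes for Pfp/Rag2-/- GFP+ against culture, 1 to 5 between sorted hosts (2522 to 5532 genes), 1 to 4 between unsorted hosts (2280 to 6142 genes), 0 to 2 for WT GFP+ against unsorted (356 to 3323 genes), 2928 to 4764 genes for Pfp/Rag2-/- GFP+ against unsorted, and 0 to 1 for the interaction (0 to 1105 genes). Without both GFP+ libraries numbered 1, 3 of the 9 genes and 2340 genes were called between sorted hosts.

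With the replicate block, no call of the 9 genes changed between sorted hosts (4588 genes called, 4497 without it). Pairing of same-numbered libraries was not established in any comparison. The block left 2 calls between unsorted hosts (Olig1, adjusted p = 0.0554, and Zeb1, 0.0559, lost) and 2 in Pfp/Rag2-/- GFP+ against unsorted cells.

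Signs turned for differences that were not called. With quantile scaling, against culture, Sox2 was at 0.19 in Pfp/Rag2-/- and 0.094 in WT hosts, and Nkx2-2 at -0.041 and Zeb1 at 0.11 in Pfp/Rag2-/- hosts. Sox2 was then at 0.10 between sorted hosts and Sox10 at -0.069 for WT GFP+ against unsorted. Sox2 in WT GFP+ against culture was at 0.0018 with edgeR and 0.0041 with DESeq2. For WT GFP+ against unsorted, Myt1 was at 0.025 with TMM, 0.0441 with edgeR and 0.0439 with DESeq2. For Pfp/Rag2-/- GFP+ against unsorted, Olig1 was at 0.0303 with TMM, 0.0308 with edgeR and 0.0253 with DESeq2. Leaving out 1 library in turn gave -0.089 to 0.066 for Sox2 between sorted hosts and -0.025 to 0.15 for Olig2 between unsorted hosts. For WT GFP+ against unsorted it gave -0.15 to 0.029 for Sox2, -0.082 to 0.089 for Sox10 and -0.18 to 0.14 for Myt1. For Pfp/Rag2-/- GFP+ against unsorted it gave -0.087 to 0.022 for Olig1 and -0.0037 to 0.10 for Olig2. For the interaction it gave -0.0025 to 0.19 for Sox10 and -0.0054 to 0.25 for Olig1. Of the interaction calls over all genes 23.8% were higher, against 41.9% with quantile scaling and 35.7% with DESeq2, and in Pfp/Rag2-/- GFP+ against unsorted cells 50% with TMM, 50.6% with edgeR and 48.1% with DESeq2 were higher, against 36.7%.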
